A study of Mus musculus with 4 samples.

Results

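The genes of the sterol-forming enzymes, which carry farnesyl diphosphate through squalene and lanosterol to cholesterol, were examined in cerebrum of mice lacking Mfsd2a in endothelial cells. The 9 genes were chosen from this pathway with earlier results of these data known, and some other enzymes of the same steps are described apart. In pathway order the 9 are Fdft1, Sqle, Lss, Cyp51, Tm7sf2, Nsdhl, Hsd17b7, Ebp and Dhcr7. They are 9 of 18194 genes with at least 1 array probe set that names a single gene. RNA was measured on 4 Affymetrix Mouse 430 2.0 arrays, 1 per group, each holding equal amounts of RNA from 5 to 6 hemi-cerebrums. 2aECKO pups (Mfsd2afl/fl, Tie2-cre) and their cre-negative 2afl/fl controls were taken at postnatal day 9. 2aiECKO pups (Mfsd2afl/fl, Cdh5ERT2-cre) and their 2afl/fl 4-OHT controls were taken at postnatal day 8. For this inducible model 4-OHT, the active form of tamoxifen, was given to newborn pups to start the cre, and the label of its control names 4-OHT too. All groups carry the floxed allele on both chromosomes, so that cre is what separates a knockout from its control. One label of the 2aiECKO array, its source name, says 2aECKO where its title and cre line say otherwise, and the title was followed. Tie2-cre is also active in blood cells and their descendants, and a pool of whole cerebrum RNA mixes endothelium with all other brain cells, so that fewer cells of a type and less RNA per cell cannot be told apart. With 1 array per group these arrays hold no replicate check of any value, and no p-value or error is given. The paper also ran the pooled RNA samples one by one on Nanostring, which measures mRNA directly. There it reports target genes of the lipid regulators Srebp-1 and Srebp-2 raised in 2aECKO, but only those of Srebp-1 in 2aiECKO. Those measurements are not used here.

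Cholesterol does not cross the blood-brain barrier in useful amounts, so the developing brain makes its own. The pathway first builds farnesyl diphosphate from acetyl-CoA. The enzymes described here then join farnesyl units into squalene, close it into the ring system of lanosterol and trim lanosterol to cholesterol by removing methyl groups and moving or reducing double bonds. Most of these genes are known targets of Srebp-2, a membrane-bound transcription factor that is released when sterols in the endoplasmic reticulum are low and that acts together with NF-Y and Sp1. In the postnatal brain, astrocytes and myelinating oligodendrocytes are known as the main producers.

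Promoter sequence was available from RefSeq for 7 of the 9 genes (GRCm38.p6), and 6 of them had a single annotated start site; Dhcr7, with 3, is left out of the counts. The windows run from 250 bases before the start site to 50 after it. Both strands were searched for the core of the sterol regulatory element (TCACNCCAC), a looser form of it that contains the core (TCACNNCA, chosen after the windows were read), an E-box form (TCACGTGA), the NF-Y box (CCAAT) and the GC box bound by Sp1 (GGGCGG). The core was in 0 of the 6 windows and in 1.24 percent of 32851 windows of all genes, and the E-box form in 0 of 6 and in 0.974 percent. The looser form was in 3 of the 6, Cyp51, Nsdhl and Hsd17b7, against 13.8 percent of all windows. Because it was chosen after these windows were read, no conclusion is drawn from that comparison. The NF-Y box was in 6 of 6 windows against 37.4 percent, and the GC box in 6 of 6 against 35.7 percent. These shares also count the windows of genes with several start sites, unlike the counts of the 6. The 3 Dhcr7 windows held 0, 0 and 2 NF-Y boxes, 1, 0 and 3 GC boxes, and 0, 1 and 1 looser elements. A match is only a match of letters, not a shown binding site. The windows of 4 genes are printed 5′ to 3′ on the gene's strand, with every match in capitals in the orientation in which it lies there (ATTGG and CCGCCC are the NF-Y and GC boxes of the other strand). Lss and Nsdhl are shown because they were higher in 2aECKO by the rule given with the values, Cyp51 for its looser sterol element, and Tm7sf2 because its fold in 2aECKO was the lowest of the 9. They lie at chr10:76531355-76531654 (Lss, plus strand), chr5:4104648-4104947 (Cyp51, minus strand), chr19:6067801-6068100 (Tm7sf2, minus strand) and chrX:72918271-72918570 (Nsdhl, plus strand).
Lss: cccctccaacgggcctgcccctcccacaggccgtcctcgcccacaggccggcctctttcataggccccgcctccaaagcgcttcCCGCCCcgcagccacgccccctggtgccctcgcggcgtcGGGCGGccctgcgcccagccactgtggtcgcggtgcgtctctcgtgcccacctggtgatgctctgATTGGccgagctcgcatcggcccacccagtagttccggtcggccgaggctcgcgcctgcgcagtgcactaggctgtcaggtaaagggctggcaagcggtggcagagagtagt
Cyp51: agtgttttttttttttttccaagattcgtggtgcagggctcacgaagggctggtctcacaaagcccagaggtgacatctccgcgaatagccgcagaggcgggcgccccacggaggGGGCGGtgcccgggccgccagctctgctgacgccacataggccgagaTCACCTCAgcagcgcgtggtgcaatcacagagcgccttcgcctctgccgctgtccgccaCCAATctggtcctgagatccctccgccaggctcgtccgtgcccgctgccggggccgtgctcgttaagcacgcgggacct
Tm7sf2: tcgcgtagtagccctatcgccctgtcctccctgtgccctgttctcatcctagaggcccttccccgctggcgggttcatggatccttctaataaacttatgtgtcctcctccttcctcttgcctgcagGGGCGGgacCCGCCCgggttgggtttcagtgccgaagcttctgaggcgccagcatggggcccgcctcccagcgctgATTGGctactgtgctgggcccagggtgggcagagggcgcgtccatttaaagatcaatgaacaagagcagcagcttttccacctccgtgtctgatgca
Nsdhl: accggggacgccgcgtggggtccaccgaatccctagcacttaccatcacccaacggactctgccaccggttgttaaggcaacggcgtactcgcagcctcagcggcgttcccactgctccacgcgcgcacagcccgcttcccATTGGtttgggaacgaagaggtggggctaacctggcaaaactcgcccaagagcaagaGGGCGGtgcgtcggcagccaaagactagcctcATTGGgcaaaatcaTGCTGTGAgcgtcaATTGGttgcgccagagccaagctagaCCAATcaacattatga
In Cyp51 the looser sterol element begins at position -88 from the start site, between a GC box at -135 and an NF-Y box at -29. In Nsdhl the looser match lies across the start site, among 4 NF-Y boxes. The Tm7sf2 and Lss windows hold the NF-Y and GC boxes but neither form of the sterol element.

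**Figure D1:**
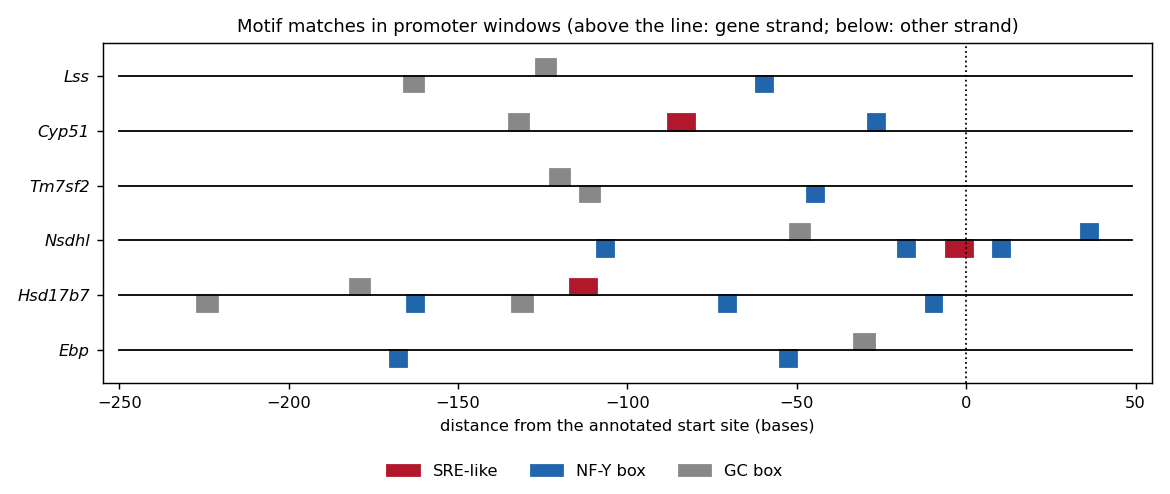
Matches of 3 motifs in the promoter windows of the 6 genes with a single annotated start site; the horizontal axis is the distance from that site in bases, and boxes above and below each line lie on the gene's strand and on the other strand. Each of the 6 windows holds an NF-Y box and a GC box. The looser form of the sterol element, chosen after the windows were read, is in Cyp51, Nsdhl and Hsd17b7.

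Sterol-forming enzymes stood above control in 2aECKO for 8 of 9 genes, by small amounts, while in 2aiECKO only Sqle and Lss did, Lss at a log2 fold of 0.20 and Sqle at 0.02. A gene was counted as higher where the knockout signal was 50 or more and the log2 fold 0.32 or more, and as lower where the control signal was 50 or more and the log2 fold -0.32 or less, a fold of 0.8. All 9 genes had a signal of at least 50 on each of the 4 arrays. In 2aECKO 2 of the 9, Lss and Nsdhl, were higher and 0 were lower, against 2.24 percent of all genes of sufficient signal that were higher and 1.76 percent that were lower. In 2aiECKO 0 were higher and 0 were lower, against 1.9 and 0.604 percent of all genes. A log2 fold above 0 was seen for 8 of 9 in 2aECKO and for 2 of 9 in 2aiECKO, while 46.3 percent of 12426 genes had one in 2aECKO and 46.4 percent in 2aiECKO. For the 9 genes the median was 0.23 in 2aECKO and -0.03 in 2aiECKO on the log2 scale, beside medians of -0.0066 and -0.0042 over all genes. The log2 fold was larger in 2aECKO than in 2aiECKO for 9 of 9 genes, by a median of 0.28, and for 48.6 percent of all genes. With the controls exchanged between the models after quantile normalization, 6 of 9 genes were above 0 in 2aiECKO and the median there was 0.0924, so the side of 0 in 2aiECKO depended on the control. In 2aECKO that exchange left the median at 0.14 but changed which genes were higher, to Lss, Tm7sf2 and Dhcr7. That difference between the models was not tested, and cre line, age, 4-OHT and the scale of the arrays differ along with it.

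**Figure D2:**
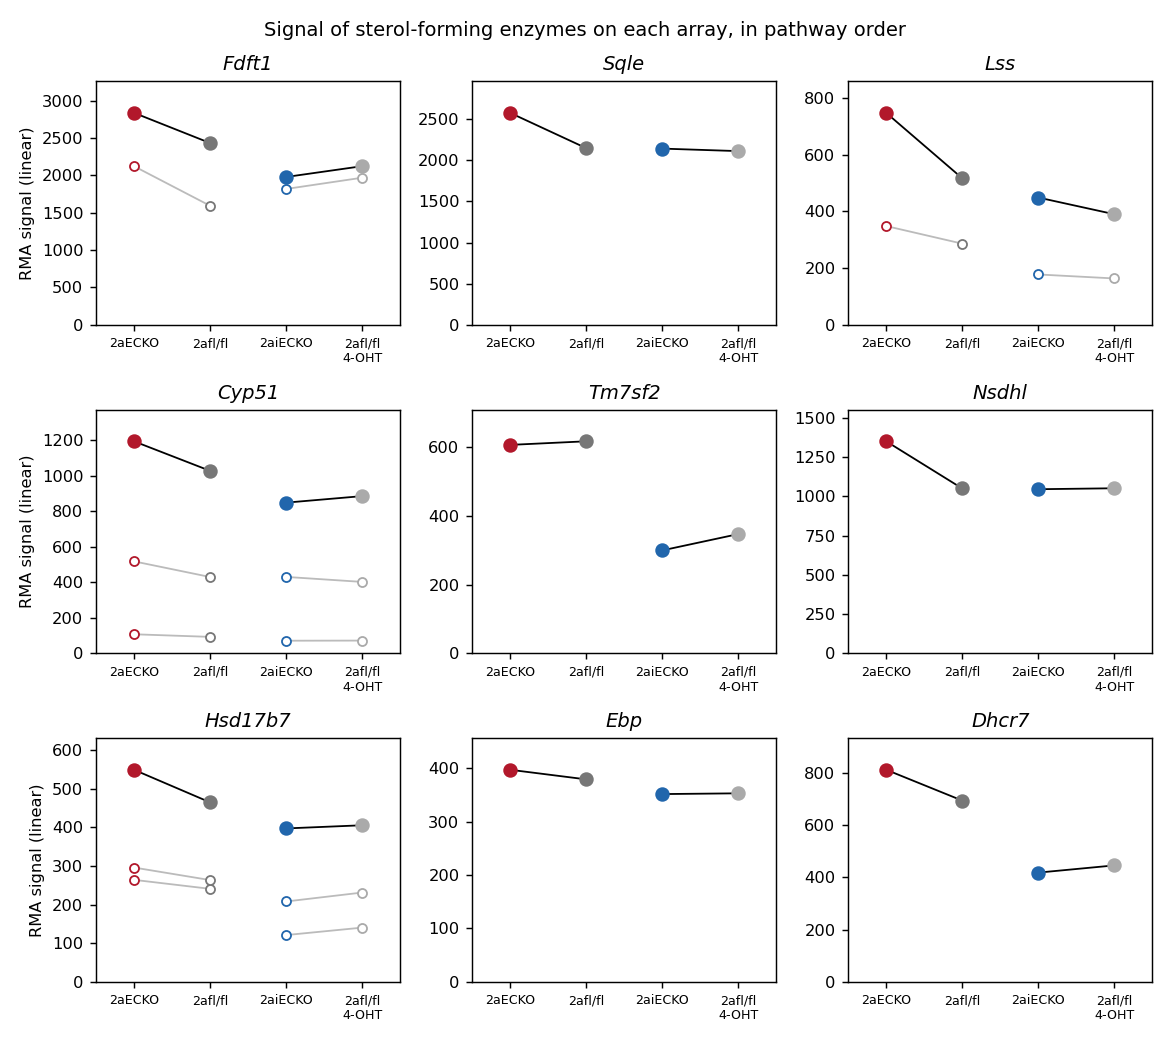
RMA signal on a linear axis for the 9 genes in pathway order on the arrays of 2aECKO, 2afl/fl, 2aiECKO and 2afl/fl 4-OHT; filled points are the brightest probe set, open points its other probe sets with a mean signal of at least 50, and lines join a knockout to its own control. The 2aECKO point lies above 2afl/fl in every panel but that of Tm7sf2, while the pair on the right is close to level apart from Lss, Tm7sf2 and some probe sets of Hsd17b7.

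At the entrance to the sterol branch, Fdft1 encodes squalene synthase, which joins farnesyl diphosphate head to head. Its brightest probe set gave a signal of 2836 in 2aECKO against 2432 in 2afl/fl, and of 1978 in 2aiECKO against 2123 in 2afl/fl 4-OHT. The 2aECKO pool was thus the brighter of its pair and the 2aiECKO pool the dimmer, with log2 folds of 0.22 and -0.10. A second bright probe set gave 2123 in 2aECKO against 1593 in 2afl/fl, a log2 fold of 0.41, and 1818 in 2aiECKO against 1968 in 2afl/fl 4-OHT, a log2 fold of -0.12. So whether Fdft1 passed a log2 fold of 0.32 in 2aECKO depended on the probe set, while the sign in each model was the same at both bright probe sets. Sqle encodes squalene epoxidase, a known rate-limiting step of the branch, and had 1 probe set. It read 2579 in 2aECKO against 2149 in 2afl/fl, and 2143 in 2aiECKO against 2113 in 2afl/fl 4-OHT. The log2 folds were 0.26, short of the 0.32 of the rule, and 0.02.

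Lss encodes lanosterol synthase, which closes squalene epoxide into the first sterol, and had the largest log2 fold of the 9 in both models. The signal was 747 in 2aECKO against 517 in 2afl/fl, a log2 fold of 0.53, and 449 in 2aiECKO against 390 in 2afl/fl 4-OHT, a log2 fold of 0.20. Of 12426 genes 50 had a larger fold in 2aECKO and 727 in 2aiECKO. Its second bright probe set gave 348 in 2aECKO against 286 in 2afl/fl, and 178 in 2aiECKO against 163 in 2afl/fl 4-OHT. Those log2 folds, 0.28 and 0.12, were smaller than at the brightest probe set and did not reach 0.32, with the same signs. Averaged over all probe sets of Lss the log2 fold in 2aECKO was 0.28, and the gene was no longer counted as higher.

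Cyp51 encodes the cytochrome P450 that takes the first methyl group off lanosterol. At its brightest probe set the signal was 1193 in 2aECKO against 1026 in 2afl/fl, and 847 in 2aiECKO against 884 in 2afl/fl 4-OHT. The other probe sets read 517 against 429 and 107 against 92.2 in 2aECKO against 2afl/fl, so that all 3 put 2aECKO above 2afl/fl, with log2 folds from 0.21 to 0.27. In 2aiECKO the 3 log2 folds were -0.06, 0.10 and -0.01, and the probe sets differed in sign. Tm7sf2 encodes the reductase of the double bond that Cyp51 leaves, and differed from the other genes. Its single probe set gave 607 in 2aECKO against 618 in 2afl/fl, and 300 in 2aiECKO against 347 in 2afl/fl 4-OHT. The 2aECKO pair was close to level, at a log2 fold of -0.02, and the 2aiECKO pool was the dimmer of its pair, at -0.21. The 2aiECKO fold was the lowest of the 9 genes there, with 12049 of 12426 genes above it. The 2aECKO fold depended on the control: after quantile normalization it was 0.50 over 2afl/fl 4-OHT and 0.24 over the mean of both controls. Lbr, the lamin B receptor, carries a second enzyme for the same reduction. It read 434 in 2aECKO against 376 in 2afl/fl, and 319 in 2aiECKO against 304 in 2afl/fl 4-OHT. With log2 folds of 0.21 and 0.07 it stood above control in both models, unlike Tm7sf2, although neither fold reached 0.32.

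Nsdhl and Hsd17b7 act in the removal of the next pair of methyl groups, Nsdhl as the decarboxylating dehydrogenase and Hsd17b7 as the reductase of the resulting ketone. Nsdhl had a signal of 1352 in 2aECKO against 1051 in 2afl/fl, and of 1046 in 2aiECKO against 1052 in 2afl/fl 4-OHT. The 2aECKO pool was the brighter of its pair and the 2aiECKO pair was almost level, with log2 folds of 0.36 and -0.0083. In 2aECKO 187 of 12426 genes had a larger fold. Its count as higher rested on its own control: after quantile normalization the log2 fold of Nsdhl in 2aECKO was 0.08 over 2afl/fl 4-OHT and 0.22 over the mean of both controls. The brightest probe set of Hsd17b7 read 549 in 2aECKO against 465 in 2afl/fl, and 397 in 2aiECKO against 405 in 2afl/fl 4-OHT, with log2 folds of 0.24 and -0.03. Its other bright probe sets gave log2 folds of 0.13 and 0.17 in 2aECKO, below the first. In 2aiECKO they gave -0.15 and -0.21, further from 0 than the first. One of them read 121 in 2aiECKO against 140 in 2afl/fl 4-OHT, the other 208 against 231.

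Ebp encodes the isomerase that shifts a ring double bond after the methyl groups are gone. Its signals were 398 in 2aECKO against 380 in 2afl/fl, and 352 in 2aiECKO against 353 in 2afl/fl 4-OHT, with log2 folds of 0.07 and -0.0061. Both pairs were close to level, and Ebp had the smallest difference between the models, 0.07. Dhcr7 encodes dehydrocholesterol reductase, which makes cholesterol in the last step of one route. It read 812 in 2aECKO against 694 in 2afl/fl, and 418 in 2aiECKO against 446 in 2afl/fl 4-OHT. The log2 folds were 0.23 and -0.09, so that Dhcr7 stood on opposite sides of its control in the 2 models. At their brightest probe sets Fdft1, Cyp51, Nsdhl, Hsd17b7 and Ebp did so too. Along the pathway the 2aECKO folds thus followed no single gradient: they were near 0.2 at Fdft1, Cyp51, Hsd17b7 and Dhcr7, highest at Lss and Nsdhl, and near 0 at Tm7sf2 and Ebp.

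**Figure D3:**
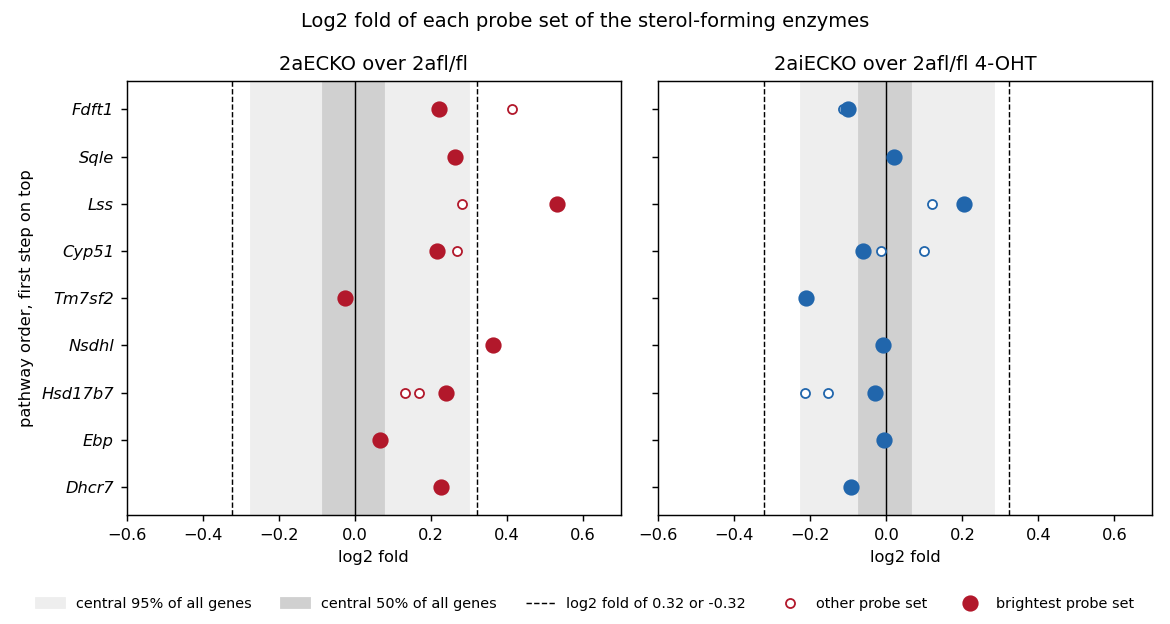
Log2 fold of each probe set with a mean signal of at least 50, in 2aECKO over 2afl/fl (left) and in 2aiECKO over 2afl/fl 4-OHT (right), with genes in pathway order from top to bottom; filled points are the brightest probe set, grey bands the central 50 and 95 percent of all genes, and dashed lines mark log2 folds of 0.32 and -0.32. On the left 14 of 15 probe sets lie right of 0, and on the right 4 of 15 do.

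Across probe sets the picture was much the same as across genes. The 9 genes have 19 probe sets, of which 15 had a mean signal of at least 50 and 4 were dimmer. Of the 15, 14 had a log2 fold above 0 in 2aECKO, all but that of Tm7sf2, against 44.9 percent of 21585 such probe sets of all genes. In 2aiECKO 4 of the 15 had one, those of Sqle, both of Lss and 1 of Cyp51, against 46.4 percent. The log2 fold was larger in 2aECKO than in 2aiECKO at 15 of 15. That share was 48.6 percent over all genes and was not counted over all probe sets. Probe sets of 1 gene share the same RNA and are not replicates. Among the 4 dim probe sets, 2 of Fdft1 had log2 folds of -0.09 and -0.03 in 2aECKO. Their folds in 2aECKO minus those in 2aiECKO were -0.0079 and -0.0284. For the dim probe sets of Lss and Hsd17b7 that difference was 0.0456 and 0.2488. Over the 9 genes the folds of the 2 models, which share no array, gave a correlation (Pearson) of 0.83, and by rank (Spearman) of 0.67. Without Tm7sf2 and Lss, the genes at either end in 2aiECKO, these were 0.07 and 0.29 over 7 genes, so the relation rested on those genes.

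The enzymes and partners of the same steps that lie outside the 9 genes had a smaller median in 2aECKO. Of 10 such genes listed, 8 were measured, and 0 were higher or lower by the rule in either model. Their median was 0.15 on the log2 scale in 2aECKO, where 6 of 8 were above 0, and 0.05 in 2aiECKO, where 6 of 8 were as well. In 2aECKO the largest were Msmo1 at 0.23, the oxidase that starts the removal of methyl groups completed by Nsdhl and Hsd17b7, Lbr at 0.21, and Cyb5b at 0.19, a cytochrome b5 that can pass electrons to sterol oxidases. The lowest were Ebpl at -0.04, a relative of Ebp, Cyb5a at -0.01 and Cyb5r3 at 0.02. In 2aiECKO they ran from -0.06 for Cyb5b, -0.02 for Cyb5r3 and 0.02 for Sc5d, a sterol desaturase, to 0.07 for Lbr, 0.07 for Cyb5a and 0.09 for Erg28, known in yeast as a scaffold of the methyl-removing enzymes. Msmo1 read 2303 in 2aECKO against 1959 in 2afl/fl, and 1405 in 2aiECKO against 1354 in 2afl/fl 4-OHT.

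Upstream, the mevalonate enzymes that supply farnesyl diphosphate had medians of 0.21 (2aECKO) and 0.01 (2aiECKO) on the log2 scale over 6 measured of 8 listed. In 2aECKO 2 of the 6 were higher, Mvd and Fdps, each at 0.43, and 6 of 6 were above 0. Idi1 followed at 0.21, then Pmvk at 0.20, Mvk at 0.14 and Hmgcs1 at 0.14. In 2aiECKO 0 were higher or lower and 3 of 6 were above 0, from -0.03 for Hmgcs1 and Mvd and -0.02 for Mvk to 0.05 for Idi1, 0.08 for Pmvk and 0.09 for Fdps, whose product Fdft1 uses. Ggps1, which draws farnesyl diphosphate away into a longer chain, was close to its control in both models (log2 folds of 0.01 and -0.04).

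Of 8 measured genes of sterol sensing and uptake, 3 were higher in 2aECKO, Srebf1 (0.85), Stard4 (0.42) and Insig1 (0.40), and 1 in 2aiECKO, Srebf1 (0.61). Srebf1 encodes the Srebp-1 factors of fatty acid synthesis and Stard4 a sterol carrier, both named after their values were seen. Srebf2, which encodes Srebp-2, had a signal of 549 in 2aECKO against 490 in 2afl/fl and of 459 in 2aiECKO against 444 in 2afl/fl 4-OHT, with log2 folds of 0.16 and 0.05. Insig1, which holds the Srebp precursors in the endoplasmic reticulum and is itself a target, had 0.16 in 2aiECKO. The list's medians were 0.12 and 0.06. Genes of sterol outlets, which export or carry cholesterol, hydroxylate it or sense its oxidized forms, had medians of 0.13 in 2aECKO and 0.26 in 2aiECKO over 8 measured genes, with 2 higher in each. Over the 5 of them that averaged 50 or more the medians were 0.28 and 0.32, and the median difference between the models over all 8 was -0.0250. None of these differences between lists or models was tested.

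**Figure D4:**
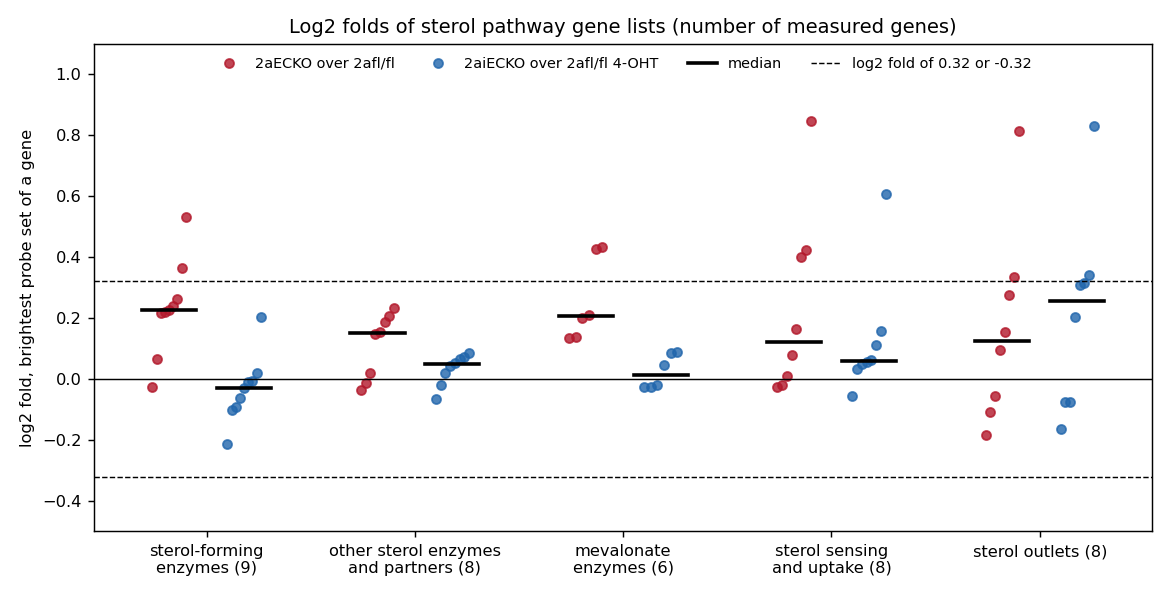
Log2 fold of each measured gene of 5 lists, in 2aECKO over 2afl/fl (red, left of each pair) and in 2aiECKO over 2afl/fl 4-OHT (blue, right); bars mark medians and dashed lines log2 folds of 0.32 and -0.32. The sterol-forming enzymes have medians of 0.23 and -0.03, the mevalonate enzymes of 0.21 and 0.01, and the sterol outlets of 0.13 and 0.26 (0.28 and 0.32 without 3 genes of mean signal below 50).

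The 2 pairs of arrays were deposited on different scales, so levels were set side by side after quantile normalization over all 4. On that scale the controls differed from each other at some of the 9 genes by as much as a knockout from its control. Tm7sf2 read 337 in 2aiECKO and 389 in 2afl/fl 4-OHT, and 548 in 2aECKO and 555 in 2afl/fl. Its log2 difference between the controls, 2afl/fl 4-OHT minus 2afl/fl, was -0.51. Dhcr7 was likewise low in the 4-OHT pair, at 467 in 2aiECKO and 495 in 2afl/fl 4-OHT against 735 in 2aECKO and 622 in 2afl/fl, with a control difference of -0.33. These were the 2 of 9 genes at most 0.8-fold between the controls, against 7.94 percent of all genes, and 0 of 9 had a control difference of 0.32 or more, against 14.6 percent. Sqle and Nsdhl leaned the other way, with control differences of 0.27 and 0.28. On the common scale Sqle read 2336 in 2aECKO, 2363 in 2aiECKO, 2330 in 2afl/fl 4-OHT and 1927 in 2afl/fl, so that 2afl/fl alone stood apart. Nsdhl read 1229 in 2aECKO, 1147 in 2aiECKO, 1159 in 2afl/fl 4-OHT and 955 in 2afl/fl, again with 2afl/fl lowest. For Lss it was 2aECKO that stood apart, at 675 against 501 in 2aiECKO, 436 in 2afl/fl 4-OHT and 463 in 2afl/fl. The median control difference was 0.09 over the 9 genes and 0.06 over all genes. Age, 4-OHT treatment and the pair an array was processed with cannot be told apart here. The pairs also differed at sex-linked genes, given here as deposited, on scales that differ between the pairs. Xist, a transcript of female cells, read 2064 in 2aiECKO and 1738 in 2afl/fl 4-OHT against 4384 in 2aECKO and 3916 in 2afl/fl. Eif2s3y, of the Y chromosome, read 225 in 2aiECKO and 244 in 2afl/fl 4-OHT against 107.5 in 2aECKO and 92.7 in 2afl/fl. The part of this in the X-linked Nsdhl and Ebp was not tested.

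**Figure D5:**
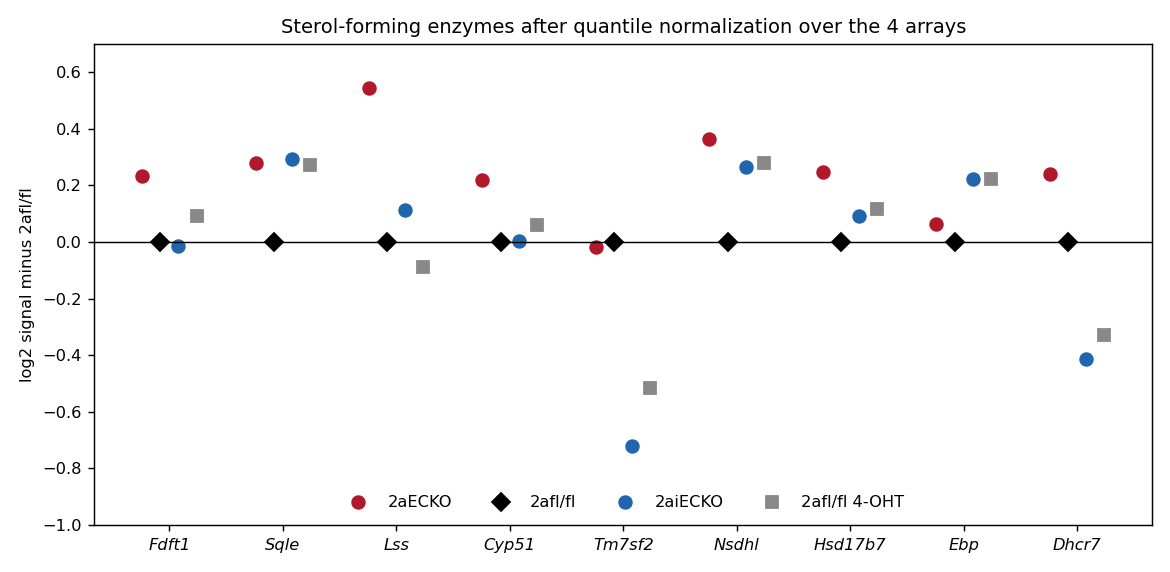
Log2 signal minus that of 2afl/fl for the 9 genes after quantile normalization over the 4 arrays, with 2aECKO, 2afl/fl, 2aiECKO and 2afl/fl 4-OHT as separate points. The 2 pools of the 4-OHT pair lie together and far below 0 at Tm7sf2 and Dhcr7, and together above 0 at Sqle, Nsdhl and Ebp.

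Markers of the cells in the tissue also differed between the pools. Neuron markers summed to 42508 in 2aECKO against 44581 in 2afl/fl and to 35119 in 2aiECKO against 36344 in 2afl/fl 4-OHT. Of 8 astrocyte markers, 1 was higher in 2aECKO and 3 in 2aiECKO, with median log2 folds of 0.23 and 0.30. Their summed signal was 24243 in 2aECKO against 21237 in 2afl/fl, and 18025 in 2aiECKO against 14922 in 2afl/fl 4-OHT. Of 7 measured oligodendrocyte and myelin markers, 0 were higher and 1 was lower in 2aECKO, and 1 was higher in 2aiECKO, with medians of -0.01 and 0.17. Microglia markers had medians of 0.10 and 0.55, with 7 of 8 higher in 2aiECKO. Endothelial markers had medians of -0.01 and -0.13, and precursors of oligodendrocytes -0.01 and 0.01, with 0 higher or lower in either. The astrocyte medians of 0.23 and 0.30 and the myelin medians of -0.01 and 0.17 thus stood beside medians of 0.23 and -0.03 for the sterol-forming enzymes. All 5 choroid plexus markers were above 0 in both models, with medians of 0.17 and 0.16. Of 3 measured red cell markers 1, Alas2 (named after its values were seen), averaged a signal of 50 or more. The others were below 50 on every array and could not be counted. Alas2 was higher in 2aECKO, at a log2 fold of 1.05, and stood at -0.51 in 2aiECKO. Liver markers, of a tissue that should be absent, had 0 higher or lower in either model, and 1 of 4 reached a mean signal of 50. The part of these cell types in the folds of the enzymes was not tested. Mfsd2a itself read 410 in 2aECKO against 423 in 2afl/fl and 299 in 2aiECKO against 369 in 2afl/fl 4-OHT; no source used here places its probe set relative to the deleted part, so it checks no label. The log2 ratio of 3′ to 5′ control probe sets for Gapdh ran from -0.28 to -0.13 over the 4 arrays and that for b-actin from 0.27 to 0.37.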

How the data were processed

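RNA of pooled hemi-cerebrums was hybridised to Affymetrix Mouse 430 2.0 arrays, 1 per group. The authors deposited intensity values on a linear scale, made by RMA (robust multi-array average), which adjusts background, equalises the distributions of arrays run together and sums the probes of a set. The study's methods name the affy package in R, and the submitters' processing notes name Partek 6.6. The 4 arrays hold 45101 probe sets each, and their median signal was 75.5 in 2aECKO, 74.1 in 2afl/fl, 49.2 in 2aiECKO and 48.7 in 2afl/fl 4-OHT, so folds were taken within a pair. The number of arrays limits the precision.

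Log2 of the intensity was taken. Of the probe sets, 34958 carry 1 symbol in the platform annotation, 932 carry several (0 of them a sterol-forming enzyme) and 9211 are unnamed here. Symbols were updated through gene identifiers with RefSeq GRCm38.p6; no coordinates of probe sets were taken from it. A gene's value is its probe set of highest mean log2 over the 4 arrays. Shares of all genes were taken over those that reached 50 in the knockout (higher), in the control (lower) or on average over the 4 arrays (12426 genes, other shares). The 9 genes and all lists were chosen with earlier results of these data known. Genes named from the lists were the 3 largest and 3 smallest folds of the enzyme lists in each model, Srebf2, Insig1 and Mfsd2a; others are said to be chosen after their values were seen. List genes not matched to a probe set are not analysed here. No test across samples was possible. Promoter windows came from RefSeq. The software was pandas 2.3.3, numpy 2.4.6, statsmodels 0.14.6 (loess), scipy 1.17.1 (rank correlation) and matplotlib 3.10.9 under Python 3.11.15.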

Additional observations from a re-analysis of the deposited data

Results flagged for a closer look

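At 6 of the 9 genes the 2aECKO pool lay above its control and the 2aiECKO pool below its own. The share of all genes with this pattern was not counted. Taken singly, 46.3 percent of all genes were above 0 in 2aECKO and 46.4 percent in 2aiECKO. The log2 fold in 2aECKO minus that in 2aiECKO was 0.37 for Nsdhl, 0.32 for Fdft1, 0.32 for Dhcr7, 0.28 for Cyp51, 0.27 for Hsd17b7 and 0.07 for Ebp. With 1 array per group none of these differences was tested. The 2aiECKO fold was within 0.1 of 0 for Nsdhl, Dhcr7, Cyp51, Hsd17b7 and Ebp, so the opposite sign rests on small values there. With the controls exchanged after quantile normalization, Cyp51 (0.0046), Nsdhl (0.26), Hsd17b7 (0.09) and Ebp (0.22) stood above 0 in 2aiECKO. Fdft1 and Dhcr7 kept the pattern, and Tm7sf2 took it on (0.50 in 2aECKO and -0.72 in 2aiECKO).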

How the results depend on the processing

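A value was called moved when it shifted by at least 0.1 on the log2 scale, or a count when it changed by over 1.5 times; the cause was not tested. With the mean of all probe sets 1 of the 9 genes was higher in 2aECKO, as Lss, averaged over its probe sets, stood at 0.28. At a fold of 1.5 0 were higher in 2aECKO and at 1.1 7 were, with 1 higher and 1 lower in 2aiECKO at 1.1. The shares of all genes at these 2 folds were not counted, so these counts show only how the rule moves. After removal of a loess trend (fraction 0.3) 4 of 9 genes were above 0 in 2aiECKO. With controls exchanged after quantile normalization over 4 arrays, 2 genes were lower in 2aiECKO, 6 were above 0, the median there was 0.0924 and the median difference between the models 0.16; in 2aECKO Nsdhl (0.08) was no longer higher, Tm7sf2 (0.50) and Dhcr7 (0.57) were, and Ebp stood at -0.16. With the mean of both controls 1 was lower and 5 were above 0 in 2aiECKO, and in 2aECKO Nsdhl (0.22) was not higher and Dhcr7 (0.41) was. By construction these settings add the gap between the controls to each fold. With less specific probe sets left out Fdft1 stood at 0.41 in 2aECKO and passed. The median in 2aECKO moved by less than 0.1 under every alternative run, and so did all 18 folds of the 9 genes under quantile normalization, centring or the loess trend. A minimum signal of 100 or none left the counts of higher and lower genes as they were. Of 126 alternative values of single folds 29 moved. In 2aECKO only the folds of Tm7sf2 and Ebp changed sign in any of them, though Sqle stood at 0.0043 with the controls exchanged. Over both models 6 folds changed sign with the controls exchanged and 5 with the mean of both. With the loess trend removed 2 did, and with the mean of probe sets 1. No paired analysis was possible because each group has 1 array. All 9 genes were above a signal of 50 on every array; precision is limited by having 1 array per group.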
